A study of Mus musculus with 6 samples.

Results

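The transcription factors that start and hold the B cell program were examined in early LPre-B cells (large pre-B cells at their early stage) of *Upf1*-cKO and Ctrl mice. The set is given as a list of names, with no measured value in its rule, though it was drawn up with earlier results of these data known. It holds 10 genes: *Pax5*, *Ebf1*, *Tcf3*, *Tcf12*, *Foxo1*, *Id2*, *Id3*, *Lef1*, *Sox4* and *Myb*. All 10 were found by Entrez ID among the 13426 genes of the table. Ctrl mice carried the genotype Upf1 Flox/Flox with an intact Mb1 locus (Mb1 +/+), and *Upf1*-cKO mice carried Upf1 Flox/Flox with Mb1 Cre/+, so that both groups had floxed *Upf1* alleles and Cre was present in the *Upf1*-cKO mice alone. Mb1 is *Cd79a*, a B lineage gene, so Cre acts in cells already in that lineage, and 1 of the *Cd79a* alleles in *Upf1*-cKO mice holds Cre. No group with Cre and unfloxed *Upf1* was part of this comparison. Mice were adult, age-matched, of both sexes and on a C57BL/6 background, and no further treatment was given. Cells were sorted from bone marrow as lineage-negative, B220+, surface IgM-, CD43+, CD2- cells of high forward scatter, with 3 libraries per group described as independent biological replicates. UPF1 is the RNA helicase at the centre of nonsense-mediated mRNA decay (NMD), and the comparison addresses which transcripts differ when it is removed at this stage.

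In the B lineage, the E proteins E2A (from *Tcf3*) and HEB (from *Tcf12*) work with FOXO1 to switch on EBF1, and EBF1 in turn switches on PAX5. PAX5 then fixes the fate of the cell by activating B cell genes and repressing those of other lineages. ID2 and ID3 are related to E proteins but lack a DNA-binding region, and they hold E proteins off DNA by pairing with them. LEF1 and SOX4 are HMG-box proteins that bend DNA and are needed for normal numbers of B cell precursors, and MYB is needed for survival and for the passage from pro-B to pre-B cells.

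Libraries held between 9732498 and 11006834 reads, and 1 row took from 13.8% to 23.8% of them. Values are normalised reads, the deposited signal in units close to reads per 1e6 of an effective library size. The targeted gene *Upf1* was at 241 ± 32.3 in Ctrl and at 297 ± 12.7 in *Upf1*-cKO libraries (SD over 3 libraries each, as for all values written with ±). Its row was higher in the libraries labelled *Upf1*-cKO (log2 fold change 0.31, limma adjusted p 0.00696), and it does not resolve the exons that Cre removes, so all directions here are those of the labels. The *Upf1* call was lost without limma's intensity trend (adjusted p 0.0707) and with median centring (0.20, adjusted p 0.0645), and without Ctrl library 2 the value was 0.19 (adjusted p 0.0358). All 10 early B lineage markers listed were measured, with summed values from 2876 to 3149 in Ctrl and from 2939 to 3203 in *Upf1*-cKO libraries. Within these like sums 3 markers were higher and 4 were lower, among them *Dntt* (170 ± 30.9 and 527 ± 49.1) and *Ptprc* (277 ± 1.44 and 154 ± 5.59). Of 12 myeloid markers 11 were measured, 5 were higher and 1 was lower (6 of 11, where 52.7% of all genes passed the test), and their sums ran from 70.9 to 156 in Ctrl and from 304 to 418 in *Upf1*-cKO libraries. The neutrophil genes *S100a8* and *S100a9* were among the higher ones, and *S100a9* was at 21.9, 2.17 and 2.93 in Ctrl libraries 1, 2 and 3 and between 83.1 and 112 in *Upf1*-cKO libraries. The part of these myeloid transcripts in the results below was not tested. T lineage markers summed to between 72.1 and 104 in Ctrl and between 38.6 and 42.9 in *Upf1*-cKO libraries, with 4 of 12 in the table and none of *Cd3d*, *Cd3e*, *Cd3g*, *Gata3* and *Bcl11b* among them. This lower sum came from *Lck* (75.4 ± 14.7 and 25.3 ± 0.808), while *Notch3* and *Thy1* were higher and the median log2 fold change of the 4 was 0.23. NK and ILC markers (3 of 10 in the table) summed to between 2.58 and 4.20 in Ctrl and between 4.82 and 8.44 in *Upf1*-cKO libraries, and 1 of them passed the test. Erythroid markers (3 of 8) summed to between 6.82 and 11.8 and between 8.39 and 9.42, and 0 passed it.

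The 10 factors were called about as often as genes in general. With limma on log2(value + 1), 6 of the 10 passed an adjusted p of 0.05, and 52.7% of all genes did so. *Foxo1* and *Lef1* were higher in *Upf1*-cKO cells, 2 of 10 where 27.7% of all genes were higher. *Tcf3*, *Tcf12*, *Sox4* and *Myb* were lower, 4 of 10 where 25% of all genes were lower. Values of the groups did not overlap for 5 factors (*Tcf3*, *Tcf12*, *Lef1*, *Sox4* and *Myb*), against 58.8% of all genes. The median absolute log2 fold change was 0.26 over the 10 factors and 0.36 over all genes, and 7 of the 10 lay between the quartiles of all genes (-0.32 and 0.42). An absolute log2 fold change of 1 or more was found in 11.1% of all genes and in 0 of the 10 factors, whose largest was 0.50, for *Myb*. The factors' median log2 fold change was -0.15, beside 0.01 for all genes. The spread among *Upf1*-cKO libraries was smaller than among Ctrl libraries for 9 of the 10 factors, *Lef1* being the exception, and for 60.6% of all genes.

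**Figure D1:**
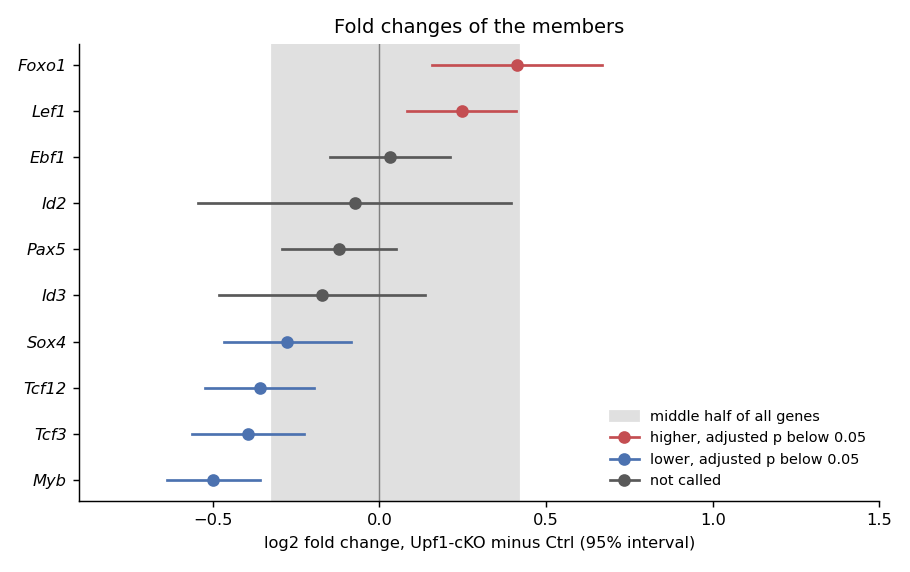
Log2 fold change of each factor in *Upf1*-cKO against Ctrl cells (points) with its 95% confidence interval (bars) from limma, coloured by call at an adjusted p of 0.05. The grey band runs between the lower and upper quartiles of all 13426 genes, from -0.32 to 0.42, and 7 of the 10 points lie inside it.

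Both of the factors that define commitment, *Pax5* and *Ebf1*, were close in level between the groups. *Pax5* (Entrez ID 18507, chromosome 4, 44524748 to 44710694, GRCm38) was at 243, 209 and 256 normalised reads in Ctrl libraries 1, 2 and 3 and at 214, 219 and 215 in *Upf1*-cKO libraries 1, 2 and 3. The 3 *Upf1*-cKO values fell within the range of the Ctrl values. Means were 236 ± 24.2 and 216 ± 2.40 (SD, n = 3 per group), and the log2 fold change of -0.12 did not pass the test (95% confidence interval -0.29 to 0.05, adjusted p 0.218). *Pax5* was called lower without Ctrl library 2, the lowest of the Ctrl libraries (-0.21, adjusted p 0.0263), and when libraries were centred on their medians (-0.23, adjusted p 0.0233). Without Ctrl library 3 the value was only -0.06 (adjusted p 0.567).

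*Ebf1* (Entrez ID 13591, chromosome 11, 44618100 to 45008096), which encodes the factor that opens chromatin at B cell genes, was at 478, 363 and 418 in Ctrl libraries and at 433, 430.3 and 417 in *Upf1*-cKO libraries. The Ctrl libraries spread on both sides of the *Upf1*-cKO libraries. Means were 419.5 ± 57.6 and 427 ± 8.62 (SD, n = 3 per group), with a log2 fold change of 0.03 (95% confidence interval -0.15 to 0.21, adjusted p 0.772). The interval for the values as the authors scaled them reaches no further than 0.21 on the log2 scale in either direction. Scaling to total reads, under which the median of all genes was 0.19, gave 0.24 (adjusted p 0.0481). Quantile normalization, under which that median was -0.05, also gave 0.24 (adjusted p 0.0271).

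**Figure D2:**
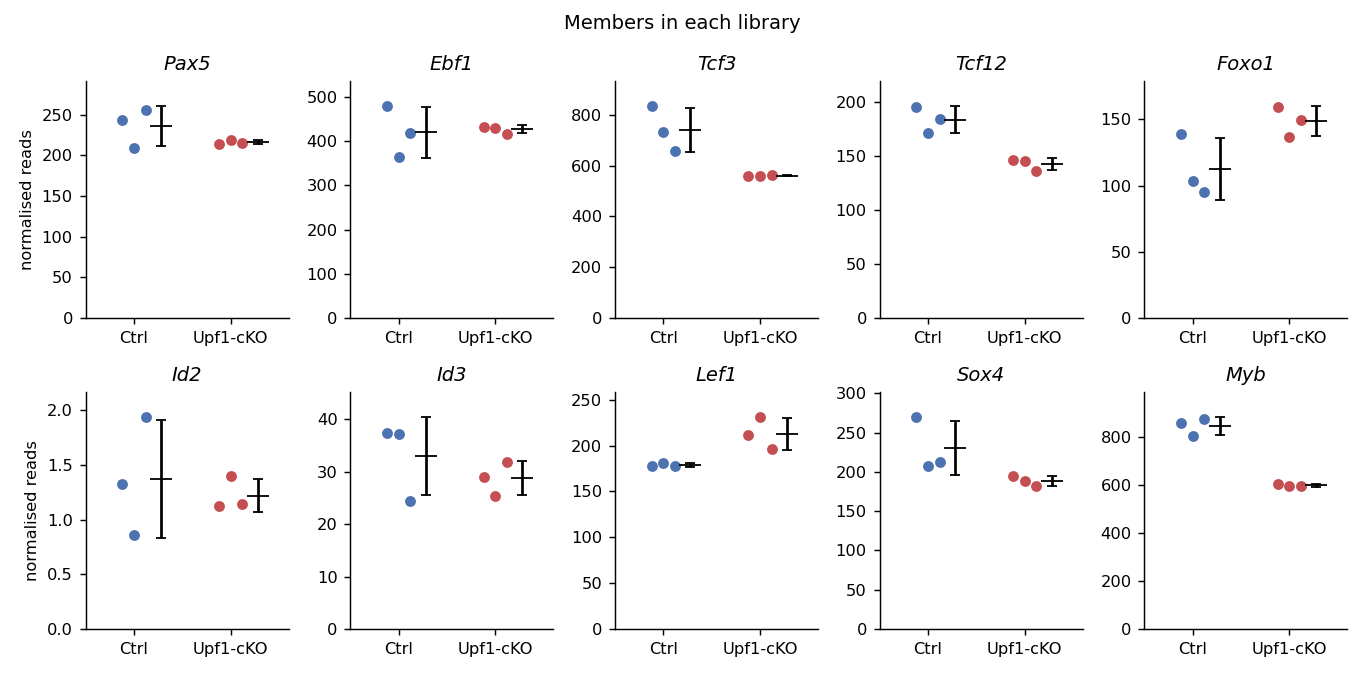
Normalised reads of each factor in the 3 Ctrl and 3 *Upf1*-cKO libraries (points), with the group mean and SD (bars); each panel has its own vertical axis from 0. The groups are apart for *Tcf3*, *Tcf12*, *Lef1*, *Sox4* and *Myb*, and the other 5 panels overlap.

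Genes that PAX5 and EBF1 are known to control were called in both directions, and most of those named are the ones with the largest differences on their lists. Of 18 genes listed as activated by PAX5, 6 were higher and 9 were lower (median log2 fold change -0.22, beside 0.01 for all genes), and 52.7% of all genes passed the test. *Ikzf3*, which encodes the Ikaros family factor Aiolos, fell from 318 ± 19.3 to 34.4 ± 2.91 (log2 fold change -3.17, adjusted p 3.07e-15). *Cd72*, a B cell surface receptor, fell from 308 ± 56.3 to 61.7 ± 5.202 (-2.29, adjusted p 1.31e-10). *Irf4*, a factor of pre-B cell maturation, fell from 466 ± 9.32 to 121 ± 9.18 (-1.94, adjusted p 5.97e-13). *Bst1*, among the 6 higher genes, rose from 30.5 ± 0.365 to 121 ± 13.3 (1.94, adjusted p 1.16e-11). *Cd79a* is on this list and fell from 221 ± 11.4 to 73.3 ± 1.85 (-1.58, adjusted p 1.24e-11), and since Cre sits in 1 of its alleles in *Upf1*-cKO mice only, its value and the genotype cannot be told apart.

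Of 13 measured genes listed as repressed by PAX5, 5 were higher, 1 was lower and 7 did not pass the test, with a median log2 fold change of 0.12 and 46.2% called beside 52.7% of all genes. *Flt3*, a growth factor receptor of early progenitors, rose from 2.03 ± 0.495 to 29.8 ± 1.07 (log2 fold change 3.36, adjusted p 1.85e-11). *Ly6a*, the stem cell antigen Sca-1, stood at 0.392 ± 0.211 in Ctrl libraries, with as few as 1 read in a library, and at 8.02 ± 2.15 in *Upf1*-cKO libraries (adjusted p 2.01e-08). *Emb*, the adhesion protein embigin, rose from 6.61 ± 0.261 to 21.6 ± 1.52 (1.57, adjusted p 3.85e-08). *Notch1* and *Csf1r*, further known PAX5-repressed genes, did not pass the test, at 0.22 (adjusted p 0.0618) and at -0.10 (adjusted p 0.798) on the log2 scale.

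Of 16 genes listed as targets of EBF1 and E2A, 6 were higher and 8 were lower (median -0.27), 87.5% called beside 52.7% of all genes. *Blk*, a B cell tyrosine kinase, fell from 216 ± 14.7 to 41.98 ± 4.97 (log2 fold change -2.34, adjusted p 7.93e-13). *Cd24a*, a surface antigen of B cell precursors, fell from 1322 ± 89.98 to 344.7 ± 25.5 (-1.94, adjusted p 5.97e-13). *Rag1*, a subunit of the V(D)J recombinase, rose from 71.4 ± 15.4 to 208 ± 13.5 (1.55, adjusted p 5.28e-07). The surrogate light chain gene *Igll1* and *Cd79b* did not pass the test, with log2 fold changes of 0.02 and -0.08. The lists share genes, among them *Ikzf3*, *Irf4*, *Cd72*, *Cd79a*, *Rag1* and *Rag2*, so their counts are not separate from each other. In sorted bulk cells, fewer cells of a kind and less RNA per cell cannot be told apart.

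Both E protein genes were lower in *Upf1*-cKO cells. *Tcf3* (Entrez ID 21423, chromosome 10, 80409541 to 80433976), which encodes the E2A proteins E12 and E47, was at 832, 731 and 657 in Ctrl libraries 1, 2 and 3 and at 560.0, 557 and 563 in *Upf1*-cKO libraries. All 3 Ctrl values lay above all 3 *Upf1*-cKO values, which were nearly equal among themselves. Its mean fell from 739.9 ± 88.1 to 560.0 ± 2.66 (n = 3 per group). In the fit on the log2 scale this was -0.39 with an SE of 0.0797 (adjusted p 0.000406).

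*Tcf12* (Entrez ID 21406, chromosome 9, 71844252 to 72111893), which encodes HEB, was at 196, 172 and 184 in Ctrl libraries and at 147, 146 and 136 in *Upf1*-cKO libraries. The groups were again apart. Its mean fell from 184 ± 12.3 to 143 ± 5.84 (-0.36 in the fit on the log2 scale with an SE of 0.0780, adjusted p 0.000779), a fold change close to that of *Tcf3*. With libraries scaled to total reads neither call held (-0.19 with adjusted p 0.0632 for *Tcf3*, -0.16 with adjusted p 0.138 for *Tcf12*). The span of *Tcf12*, introns included, overlaps 11 other annotated genes. Reads were counted without strand, so the value of *Tcf12* may hold reads of those genes. The same limit holds for *Pax5* (4 genes), *Foxo1* and *Lef1* (2 each) and *Ebf1*, *Sox4* and *Myb* (1 each).

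The ID genes did not pass the test. *Id3* (Entrez ID 15903, chromosome 4, 136143822 to 136145392) was at 37.4, 37.1 and 24.4 in Ctrl libraries and at 29.0, 25.4 and 31.8 in *Upf1*-cKO libraries, with overlapping groups and Ctrl library 3 the lowest of all 6. Its log2 fold change was -0.17 (95% confidence interval -0.48 to 0.14, adjusted p 0.342), and without Ctrl library 3 it was called lower (-0.37, adjusted p 0.0157), but it was -0.07 without Ctrl library 1 and -0.08 without Ctrl library 2. *Id2* (Entrez ID 15902, chromosome 12, 25093799 to 25096092), whose product is best known from natural killer and innate lymphoid cells, was near the floor of the table. It had between 8 and 19 reads per library, at 1.33, 0.859 and 1.94 in Ctrl and 1.122, 1.40 and 1.14 in *Upf1*-cKO libraries. Its log2 fold change of -0.07 had a 95% confidence interval from -0.54 to 0.40 (adjusted p 0.801), so a change of moderate size was not detectable at this depth.

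Since each ID protein titrates E proteins, the sum of *Tcf3* and *Tcf12* was divided by the sum of *Id2* and *Id3* in each library, per kb of exon. The ratio was 10.2, 9.10 and 12.1 in Ctrl libraries 1, 2 and 3 and 8.89, 9.997 and 8.12 in *Upf1*-cKO libraries. The groups overlapped, because *Upf1*-cKO library 2 stood above Ctrl library 2. On the log2 scale the means were 3.38 ± 0.208 and 3.16 ± 0.150 (SD, n = 3 per group), a difference of -0.21 with an exact two-sided permutation p of 0.2, where the 20 assignments of the libraries cannot give less than 0.1. Without Ctrl library 3 the difference was -0.10, and without *Upf1*-cKO library 3 it was -0.14. *Tcf3* made up between 93.2% and 94.2% of the E protein sum and *Id3* between 94.5% and 98.3% of the ID sum in all 6 libraries, so the ratio was mainly one of *Tcf3* to *Id3*. The share of *Tcf3* depends on the exon lengths used, 4039 bases for *Tcf3* and 15529 for *Tcf12*. Before division by length, the Ctrl means were 740 and 184.

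E proteins bind the E-box, and 250 bases before an annotated transcript start of each factor were searched for the E-box form CAGCTG, which reads alike on both strands, and for CAGGTG, whose other strand reads CACCTG (RefSeq, GRCm38.p6). Where a factor has several starts in RefSeq (4 for *Lef1*, 3 for *Tcf12* and 2 for *Ebf1*), only the window nearest the outer end of the gene was used. The start used lies 341 bases inside the printed span of *Tcf3*, so that its whole window falls within the gene, and 74 bases inside that of *Tcf12*. The letters were found once each in *Tcf12*, *Id2* and *Sox4*, which is 3 of the 10 factors, and in 27.7% of 32851 promoter windows of the same length. The 3 windows are printed on the gene's strand (minus for all 3), 5′ to 3′ and ending at the base before the start, to show where the letters stand within them, with the E-box in capitals.
Tcf12 chr9:72111820-72112069: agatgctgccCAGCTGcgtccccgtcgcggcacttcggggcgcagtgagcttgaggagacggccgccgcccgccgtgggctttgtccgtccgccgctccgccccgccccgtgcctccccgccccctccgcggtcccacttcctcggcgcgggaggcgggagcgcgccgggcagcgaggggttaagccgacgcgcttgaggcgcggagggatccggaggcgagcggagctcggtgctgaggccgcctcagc
Id2 chr12:25096093-25096342: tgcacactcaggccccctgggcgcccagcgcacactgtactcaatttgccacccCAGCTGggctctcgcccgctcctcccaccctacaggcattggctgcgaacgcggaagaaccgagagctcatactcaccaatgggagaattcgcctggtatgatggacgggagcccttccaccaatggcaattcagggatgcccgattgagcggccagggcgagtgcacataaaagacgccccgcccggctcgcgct
Sox4 chr13:28953700-28953949: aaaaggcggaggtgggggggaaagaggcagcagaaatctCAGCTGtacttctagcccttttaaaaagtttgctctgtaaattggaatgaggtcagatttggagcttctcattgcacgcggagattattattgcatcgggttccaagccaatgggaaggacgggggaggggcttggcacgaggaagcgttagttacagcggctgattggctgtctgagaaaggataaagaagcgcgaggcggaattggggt
All 3 matches read CAGCTG, and they begin 240, 196 and 211 bases before the start in *Tcf12*, *Id2* and *Sox4*. *Tcf12* and *Sox4* were lower in *Upf1*-cKO cells and *Id2* did not pass the test. A match is a description of the letters and not a site of binding. The FOXO letters GTAAACA, or TGTTTAC on the other strand, were in 0 of the 10 windows and in 3.17% of all promoters.

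Of 10 measured partners and regulators of E and ID proteins, 4 were higher and 3 were lower (median log2 fold change 0.02), and of all genes 27.7% were higher and 25% were lower. These counts became 5 and 0 under total reads, 4 and 1 when the row with the most reads was left out of the total, and 3 and 5 under median centring. *Tcf4*, the remaining E protein gene, rose from 135 ± 6.43 to 159 ± 9.30 (log2 fold change 0.24, adjusted p 0.0168), opposite in sign to *Tcf3* and *Tcf12*. *Tal1*, a blood progenitor factor that pairs with E proteins, rose from 1.64 ± 0.473 to 3.57 ± 0.781 (0.80, adjusted p 0.00528), and its bridging partner *Lmo2* rose from 13.8 ± 2.54 to 20.3 ± 0.596 (0.54, adjusted p 0.00381). *Id1* was called higher from 0.290 ± 0.121 to 1.08 ± 0.400 (adjusted p 0.0168) on between 1 and 15 reads per library. Its call was lost in 4 of 17 alternatives (adjusted p up to 0.0749), and its log2 fold change ran from 0.51 to 2.11. *Tcf4* was chosen here after its values were seen, because it completes the E protein family.

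*Foxo1* had the largest rise among the factors. FOXO1 is a forkhead factor that drives expression of *Rag1*, *Rag2* and *Il7r* in early B cells and that AKT, downstream of PI3K, sends out of the nucleus. *Foxo1* (Entrez ID 56458, chromosome 3, 52268337 to 52350109) was at 139, 104 and 94.98 in Ctrl libraries 1, 2 and 3 and at 159, 137 and 149 in *Upf1*-cKO libraries. Ctrl library 1 stood just above *Upf1*-cKO library 2, so the groups overlapped by this pair. The mean rose from 113 ± 23.4 to 148 ± 11.3 (n = 3 per group). In the fit on the log2 scale this was 0.41 with an SE of 0.119 (adjusted p 0.00968). The call was lost without Ctrl library 2 (0.36, adjusted p 0.0787) and when limma was run without its intensity trend (adjusted p 0.0628).

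Among 17 genes listed as FOXO1 targets, 7 were higher and 5 were lower (median log2 fold change 0.12), where 27.7% and 25% of all genes were. Besides *Rag1*, *Rag2* rose from 29.0 ± 1.14 to 66.3 ± 5.03 (log2 fold change 1.16, adjusted p 1.31e-08), while *Il7r*, the receptor for interleukin-7, fell from 342 ± 37.4 to 224 ± 7.96 (-0.61, adjusted p 6.53e-06). *Pik3ip1*, which encodes an inhibitor of PI3K, rose from 15.3 ± 5.69 to 44.9 ± 4.31 (1.55, adjusted p 4.69e-05), and *Bcl6*, a repressor induced in pre-B cells, fell from 8.77 ± 2.10 to 2.64 ± 2.08 (-1.55, adjusted p 0.00201). Of 16 genes of the FOXO family and of PI3K-AKT control, 5 were higher and 4 were lower (median -0.01), a share of 56.2% called that is near the 52.7% of all genes. The balance turned with the scaling, to 4 higher and 7 lower under median centring and 8 higher and 3 lower under total reads. *Akt1* fell from 335 ± 25.4 to 196 ± 7.49 (-0.76, adjusted p 1.39e-07), *Foxo3* rose from 24.2 ± 1.93 to 32.1 ± 3.97 (0.39, adjusted p 0.0102), and *Pik3cb*, a catalytic subunit of PI3K, rose from 2.31 ± 0.507 to 4.35 ± 0.0794 (0.71, adjusted p 0.00694). *Rag2*, *Il7r* and *Foxo3* were chosen after their values were seen, as were *Bst1*, *Notch1*, *Csf1r*, *Igll1*, *Cd79a* and *Cd79b* above.

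The HMG-box genes *Lef1* and *Sox4* went in opposite directions. *Lef1* (Entrez ID 16842, chromosome 3, 131110297 to 131224357), whose product is a nuclear partner of beta-catenin, was at 177, 181 and 178 in Ctrl libraries and at 212, 231 and 196 in *Upf1*-cKO libraries. The Ctrl values were almost equal and all below the *Upf1*-cKO values. The mean rose from 179 ± 1.87 to 213 ± 17.5 (n = 3 per group). In the fit on the log2 scale this was 0.25 with an SE of 0.0775 (adjusted p 0.0122). The call did not hold without *Upf1*-cKO library 2, the highest (0.19, adjusted p 0.0994), after median centring (0.14, adjusted p 0.147) or without the intensity trend (adjusted p 0.0691).

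*Sox4* (Entrez ID 20677, chromosome 13, 28948919 to 28953699), a gene of a single exon, was at 269.6, 208 and 213 in Ctrl libraries and at 195, 188 and 182 in *Upf1*-cKO libraries. The groups were apart, with Ctrl library 1 well above the other 5 libraries. The mean fell from 230.1 ± 34.3 to 188 ± 6.59 (-0.28 in the fit on the log2 scale with an SE of 0.0907, adjusted p 0.0154). It was the least stable of the 6 calls and was lost in 7 of 18 alternatives. These were leaving out Ctrl library 1 (-0.16, adjusted p 0.0723), *Upf1*-cKO library 2 (-0.28, adjusted p 0.0529) or *Upf1*-cKO library 3 (-0.25, adjusted p 0.0726), no intensity trend (adjusted p 0.0997), quantile normalization (-0.16, adjusted p 0.141), total reads (-0.07, adjusted p 0.546) and total reads without the row with the most reads (-0.18, adjusted p 0.113).

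Of 16 measured genes of the TCF/LEF, SOX and beta-catenin group, 3 were higher and 7 were lower (median -0.23), 62.5% called beside 52.7% of all genes. *Sox5*, another HMG-box gene, fell from 2.47 ± 0.220 to 0.408 ± 0.156 (adjusted p 4.06e-05) on between 3 and 25 reads per library. *Tle3*, a Groucho corepressor that binds TCF/LEF proteins, rose from 107 ± 4.69 to 242.9 ± 10.9 (1.17, adjusted p 5.44e-10), and *Tcf7l2*, a relative of *Lef1*, rose from 13.4 ± 3.56 to 26.6 ± 1.42 (0.97, adjusted p 5.48e-05). *Ctnnb1*, the gene of beta-catenin, fell from 472 ± 7.10 to 325 ± 4.701 (-0.54, adjusted p 2.48e-06), and *Axin2*, a known transcriptional target of the pathway, fell from 7.07 ± 0.273 to 4.06 ± 0.926 (-0.69, adjusted p 0.00512), both chosen after their values were seen.

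*Myb* had the largest absolute log2 fold change of the 10 factors as deposited, though *Foxo1* exceeded it with quantile normalization, with total reads (with and without the row with the most reads) and without Ctrl library 1, and *Tcf3* without Ctrl library 3. *Myb* (Entrez ID 17863, chromosome 10, 21124930 to 21160984) was at 858, 803 and 874 in Ctrl libraries 1, 2 and 3 and at 605, 593 and 595 in *Upf1*-cKO libraries. The groups lay far apart compared with the spread within each. The mean fell from 845 ± 37.1 to 598 ± 6.27 (n = 3 per group). In the fit on the log2 scale this was -0.50 with an SE of 0.0671 (adjusted p 5.62e-06). The call held in all 18 alternatives, with log2 fold changes from -0.61 to -0.29 and adjusted p from 3.62e-12 to 0.00429. In the same fit *Myb* lay at the 63.7th percentile of all genes by absolute log2 fold change.

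Of 6 MYB relatives and cofactors, 0 were higher and 2 were lower (median -0.21), where 27.7% of all genes were higher and 25% were lower. These counts became 2 and 1 under total reads, 1 and 3 under quantile normalization, and 0 and 4 under median centring. The acetyltransferase genes *Ep300* and *Crebbp*, whose products are bound by MYB, fell from 261 ± 15.97 to 175 ± 7.70 (log2 fold change -0.57, adjusted p 4.88e-06) and from 251 ± 14.3 to 204 ± 9.34 (-0.30, adjusted p 0.00288). The MYB paralogs *Mybl1* (-0.30) and *Mybl2* (-0.13) did not pass the test, and neither did *Kmt2a* (0.13) and *Men1* (0.07).

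Fold changes of other regulators of the B lineage ranged more widely than those of the 10 factors. Of 22 listed, 3 were higher and 16 were lower (27.7% and 25% of all genes), with a median log2 fold change of -0.52 and a median absolute one of 0.69. An absolute log2 fold change of 1 or more was seen in 10 of them, and 14 exceeded that of *Myb*. Besides *Ikzf3* and *Irf4*, *Ikzf1*, which encodes Ikaros, fell from 1151 ± 37.9 to 473 ± 9.18 (log2 fold change -1.28, adjusted p 2.66e-11), and *Bach2*, a transcriptional repressor of B cells, fell from 878 ± 97.1 to 296 ± 13.7 (-1.56, adjusted p 2.45e-11). *Erg*, an ETS factor of early progenitors, rose from 38.7 ± 4.53 to 184 ± 3.04 (2.23, adjusted p 1.11e-12), the largest rise on this list. *Ikzf1* and *Bach2* were chosen after their values were seen. Over all 9 lists, which hold 119 different genes, 34 were higher and 46 were lower, 67.2% in all, beside 52.7% of all genes. The balance depended on the scaling, with 45 higher and 34 lower under total reads and 30 higher and 57 lower under median centring, while B lineage regulators had 3 higher and at least 12 lower under each scaling.

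**Figure D3:**
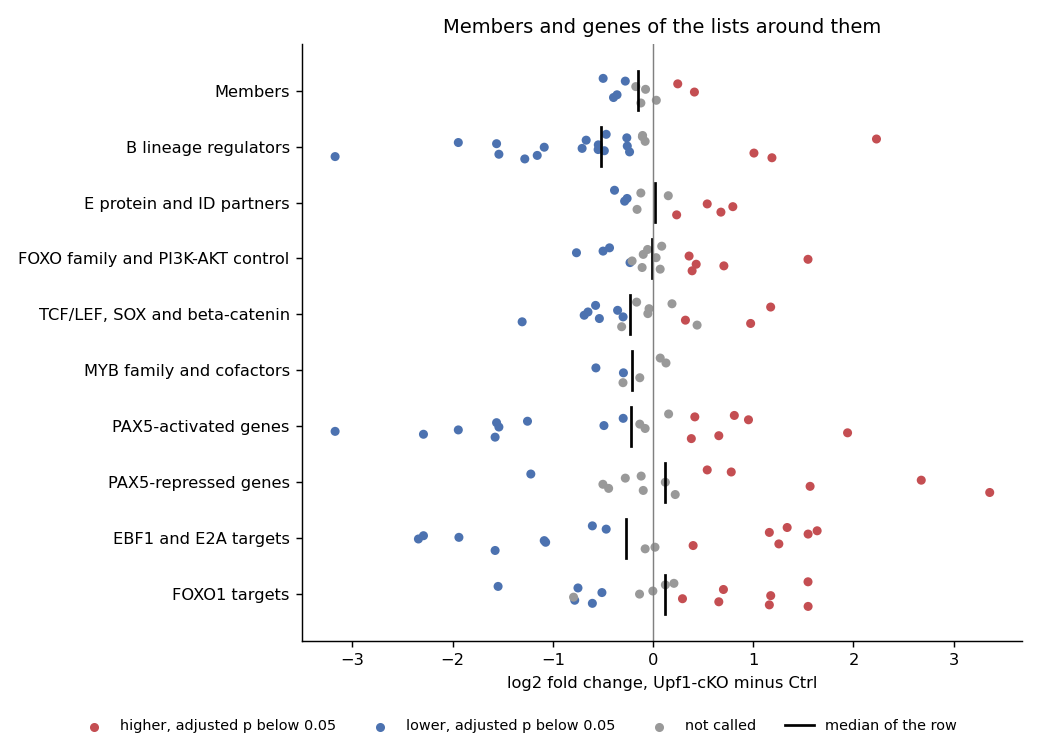
Log2 fold change (*Upf1*-cKO against Ctrl) of the 10 factors in the top row and of each measured gene in the 9 lists around them, coloured by call, with a black bar at the median of each row. The 10 factors lie between -0.50 and 0.41, while B lineage regulators run from -3.17 to 2.23 and PAX5-repressed genes reach 3.36.

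Per kb of annotated exon, the levels of the factors spanned a wide range. The order depends on the exon lengths used, which ran from 1791 bases for *Id3* to 15529 for *Tcf12*. *Tcf3* was highest in Ctrl cells at 183 ± 21.8 normalised reads per kb (SD, n = 3), followed by *Myb* at 94.6 ± 4.15, *Sox4* at 48.0 ± 7.15 and *Ebf1* at 43.0 ± 5.90. *Pax5* at 26.6 ± 2.73, *Lef1* at 20.4 ± 0.213, *Id3* at 18.4 ± 4.16, *Foxo1* at 13.0 ± 2.70 and *Tcf12* at 11.8 ± 0.791 came next. *Id2* was last, at 0.564 ± 0.222. By this measure *Tcf3* stood at the 99.0th, *Myb* at the 97.3rd and *Id2* at the 14.4th percentile of all genes with an annotated length. Library values of neighbours in the order overlapped for *Sox4* and *Ebf1*, *Lef1* and *Id3*, *Id3* and *Foxo1*, and *Foxo1* and *Tcf12*, so these neighbours are not separated beyond their spread. In *Upf1*-cKO cells the order was the same but for a pair of exchanges, *Ebf1* (43.7 ± 0.884) above *Sox4* (39.3 ± 1.37) and *Foxo1* (17.1 ± 1.30) above *Id3* (16.05 ± 1.80), and the library values of the second pair overlapped, as did those of *Pax5* and *Lef1*.

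**Figure D4:**
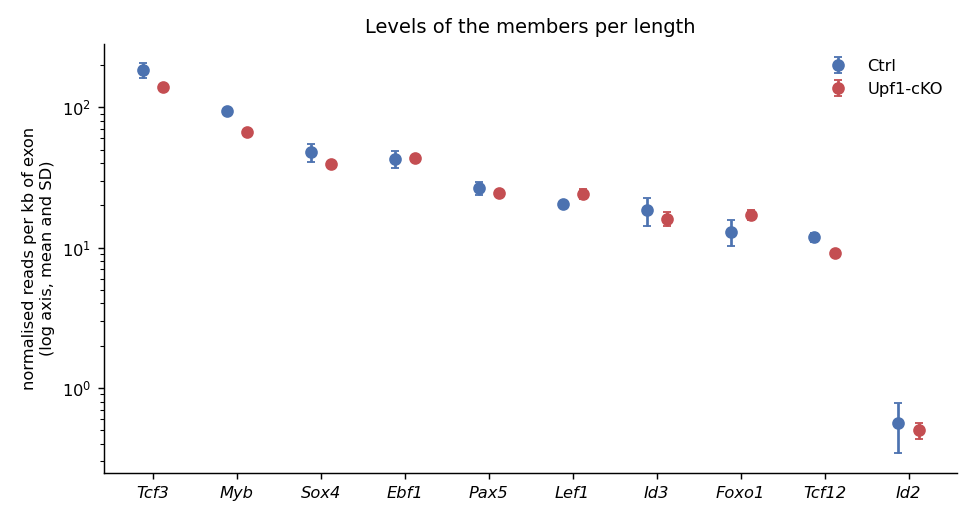
Normalised reads per kb of exon for each factor (log axis), as mean and SD of the 3 libraries of each group, ordered by the Ctrl mean. *Tcf3* is highest at 183 in Ctrl and 139 in *Upf1*-cKO cells, and *Id2* is lowest at 0.564 and 0.5001.

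Features that bear on NMD were read from the annotation. In GENCODE M21, *Tcf12* had 6 of 21 transcripts and *Pax5* had 2 of 20 transcripts of the biotype nonsense-mediated decay, and the other 8 factors had 0, where 29.4% of 11953 protein-coding genes had at least 1. The log2 fold change had a median of 0.12 for genes with such a transcript and -0.02 for genes without. *Tcf12* and *Pax5*, at -0.36 and -0.12, were both below that median of 0.12. A long 3′ untranslated region is another known feature of NMD substrates, and the median length was 929 bases over all coding genes. It was longest in *Pax5* (6752 bases), *Foxo1* (6243), *Tcf12* (3887) and *Sox4* (2783), which include 1 higher gene, 2 lower genes and 1 that did not pass the test. *Lef1* (1290 bases, higher) and *Myb* (1241 bases, lower) were also above that median length. The gene-level table does not separate transcripts, so levels of single isoforms were not measured.

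The directions of the 6 called factors held under every scaling of the libraries, but the calls did not. The median over all genes, 0.01 as deposited, became -0.10 with median centring and 0.19 with total reads. *Foxo1* and *Myb* were called under all 5 scalings. *Ebf1*, *Pax5*, *Id2* and *Id3*, which did not pass the test as deposited, lay close enough to 0 to change sign with these shifts of all genes.

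**Figure D5:**
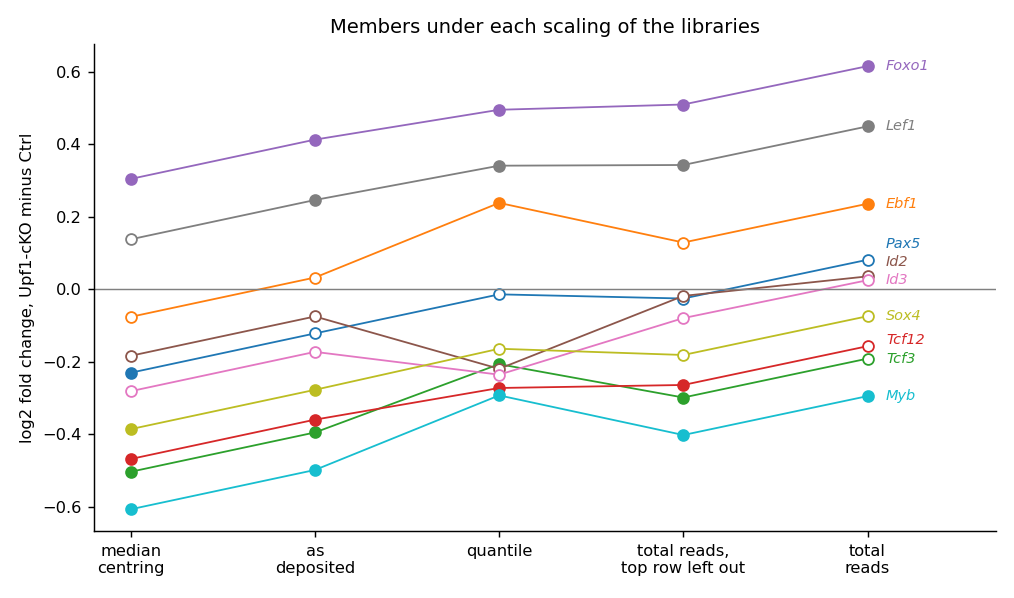
Log2 fold change of each factor (*Upf1*-cKO against Ctrl) under 5 scalings of the libraries, with filled points where the adjusted p was below 0.05 and open points where it was not. All 10 lines end higher under total reads than under median centring. *Foxo1* and *Lef1* stay above 0, and *Tcf3*, *Tcf12*, *Sox4* and *Myb* stay below it.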

How the data were processed

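RNA from sorted early LPre-B cells was depleted of ribosomal RNA, made into libraries and sequenced from a single end by the authors. Reads were aligned to mm10 with HISAT2 without strand and counted with featureCounts 2.0.1, and the submitters' processing notes also name cutadapt 4.0 and limma 3.48.0. The authors deposited a normalised signal per gene, identified by Entrez ID. From the values, a value is a read count, with 0.5 added, per 1e6 of the library's effective size. Whole reads were recovered for 100% of values (tolerance 0.05 read), 9732498 to 11006834 per library. Every gene exceeded 0.5 in at least 3 libraries, so low genes are not in the table.

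RefSeq (GRCm38.p6) named 13008 of 13426 IDs and 13011 had a symbol in all. Exon lengths came from GENCODE M21 and matched 12155 genes. Overlapping genes cannot be separated without strand.

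Genes were tested with limma 3.58.1 (R 4.3.3), fitted to log2(value + 1) by group with an intensity trend, robust estimation and Benjamini-Hochberg adjustment over all genes. All adjusted p-values are from this fit unless named otherwise, fold changes understate low genes, and a call is an adjusted p below 0.05. Groups and replicate numbers came from the labels. The step was run on simulated counts with fewer changed genes than were called here. Those changes were larger than that of any of the 10 factors, so the run does not speak to calls of this size. The genes named were the 10 factors, *Upf1* and, per list, at most 3 called genes by largest absolute log2 fold change, and the other genes named, lineage markers and the remaining MYB relatives included, were chosen after their values were seen. The factors and lists were chosen with earlier results of these data known.

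Alternatives were the replicate block, no trend, the recovered reads in voom, DESeq2 1.42.0 and edgeR 4.0.16, 4 other scalings, pseudocounts of 0.1 and none, a minimum mean log2 value of 1 and leaving out each library. Between any pair of libraries of a group, chi-square was between 4.39 and 22.0 times its degrees of freedom, and each was kept as its own replicate. Some sort markers and list genes are not reported here.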

Additional observations from a re-analysis of the deposited data

How the results depend on the processing

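The 6 calls were the same with voom weights, edgeR, DESeq2, either other pseudocount and the minimum level, and each of the 6 called factors kept its direction in all 18 alternatives. Without the intensity trend 0 factors were higher, and after median centring 1 was. Scaling to total reads left 1 factor lower, and 1936 genes lower in all, with 72.8% of called genes higher in place of 52.6%. That share was 40.7% after median centring and 62.3% with total reads without the row with the most reads, an alternative chosen after seeing the data. *Ebf1* turned to -0.076 under median centring, and *Pax5* to 0.082, *Id2* to 0.036 and *Id3* to 0.025 under total reads. Leaving out 1 library, *Ebf1* ran from -0.067 (without Ctrl library 2) to 0.13, and *Id2* from -0.24 to 0.091 (without Ctrl library 3). *Ebf1* was called higher after quantile normalization (0.24, adjusted p 0.0271). Leaving out 1 library at a time gave 1 to 2 factors higher and 3 to 5 lower, 3224 to 3643 genes higher and 2867 to 3350 lower, 30 to 36 list genes higher and 43 to 50 lower, and a log2 E protein to ID ratio difference from -0.31 to -0.10. The 1 higher factor came without Ctrl library 2 or without *Upf1*-cKO library 2. With the replicate number as a block, the same 6 factors were called, 3668 genes were higher and 3321 lower, and the ratio difference stayed at -0.21. Deviations of same-numbered libraries correlated at 0.08, -0.03 and -0.02, which with 3 libraries per group cannot decide whether they are pairs. The deposited names number the *Upf1*-cKO and Ctrl library of each replicate consecutively, and the main fit did not pair them. Other forms of the ratio gave -0.21, -0.25 and -0.22. For the 22 list genes named by the rule, 390 of 395 values kept their direction and call, 5 lost the call (4 for *Id1* and 1 for *Crebbp*, with adjusted p up to 0.0749 and 0.382) and 0 turned. Depth limits *Id2*, *Id1*, *Ly6a* and *Sox5*, which rest on few reads, and 3 libraries per group limit every value.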
